A study of Mus musculus with 8 samples.

Results

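Small RNA sequences of piRNA length that carry no annotation and fit more than 1 place in the mouse genome are described here. The members are the distinct sequences of 24 to 33 nt with a blank annotation and a map number (the number of genome positions given by the authors) of 2 or more. They number 249771 of 6246223 distinct sequences in the list, or 3.999%. The sequences came from testes of mice whose Tdrd6 or Tdrd1 gene was mutated, with 1 library in each of 8 groups. These were homozygous and heterozygous Tdrd6 mutants at 18 days, at 25 days and at 6 weeks after birth, and homozygous and heterozygous Tdrd1 mutants at 18.5 days post coitum. The allele, the strain and the number of animals behind a library are not given in the sources used here. The deposited list ties no sequence to a library and holds no read number, so genotypes and ages were not compared, the labelled tissue could not be checked by marker levels, and depth is unknown. Every value below counts distinct sequences, each once, and there are no replicates and no tests. Intervals are 95% exact (Clopper-Pearson) binomial intervals, which cover counting error only. The libraries were amplified without molecular identifiers, and overlapping sequences from 1 locus are not independent.

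piRNAs are small RNAs bound by Piwi proteins in germ cells, where they direct the silencing of transposons and, in meiotic cells, also arise in great numbers from long single-stranded precursors outside transposons. Primary piRNAs usually begin with U, written T in the list. When a Piwi protein cleaves a complementary transcript, the product starts 10 nt from the guide's first base on the opposite strand, so that partners overlap by 10 nt and the second one tends to carry A at position 10 (the ping-pong cycle). Tdrd1 and Tdrd6 encode Tudor-domain proteins that bind methylated Piwi proteins. A sequence with several genome positions cannot be assigned to any single copy, which concerns every locus named below.

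The form of these sequences is shown first by a 5' end with 10 nested variants, one at each length from 24 to 33 nt. So many variants are not typical. At map number 2, 68.5% of 5' ends had 1 variant and 8.08% had 5 or more. The first base of the example is A, whereas 68.4% of the members at map number 2 began with T. This 5' end is shown because all its variants were located, on annotated transcripts of GRCm38, at as many positions as their map number of 2. Both positions are on chromosome 10, at 86575469 on the minus strand and 86621032 on the plus strand, antisense to the processed pseudogenes Gm48454 and Gm48474. The variants of 24, 27 and 30 nt are given, with the first 20 nt, which define the 5' end, in capitals.
24 nt: AACAGAGTCTTGACAGGGAAgccc
27 nt: AACAGAGTCTTGACAGGGAAgccctga
30 nt: AACAGAGTCTTGACAGGGAAgccctgattt

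Opposite-strand partners are shown by pairs from 5 loci described below, chosen among the located pairs as the one with most variants at its rarer 5' end. For Gm17167 and Gm20789 no pair had all positions located. There, only sequences whose located positions were all on the named gene's chromosome were taken. At Gm48475 and Spin1 overlaps of 10 nt did not stand out from other overlaps, as given below. Capitals mark the 10 nt by which the 5' ends of a pair overlap, and the capitals of one are the reverse complement of the other's.
Gm17167 sense: TCTTCTGGTAttggagaccgccctgcatgg
Gm17167 antisense: TACCAGAAGAgcatttctgaagtaaaccct
Gm20789 sense: TAAGATCTACaggcataagtcagggagaa
Gm20789 antisense: GTAGATCTTAgagtgctctgcctctcttca
Gm48475 sense: GTGAACTATAtacccaaaaggagacctat
Gm48475 antisense: TATAGTTCACatatcataacccatggatgt
Gm6605 sense: GACATCACTAggtttggggcagacattc
Gm6605 antisense: TAGTGATGTCtttaaagtcgaagctggatc
Spin1 sense: TCACCTATGAgaaagaccctgtcttgtaca
Spin1 antisense: TCATAGGTGAtgtaaaaccatgtgttcatg

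In the Gm17167 pair each 5' end had 10 variants, and the 2 sequences had map numbers of 19 and 21. Of these, 5 positions each were located, all on chromosome 4, as the choice required. The Gm20789 pair had 8 sense and 7 antisense variants, with map numbers of 5 and 4. Here 1 position each was located, on chromosome 13, again as the choice required. The Gm48475 pair had 9 sense and 6 antisense variants, with map numbers of 3 and 5 and all positions on chromosome 10. The Gm6605 pair had 2 sense and 8 antisense variants and lay on chromosome 7. Its sequences were located at 7 and 6 positions, more than their map numbers of 6 and 5. The Spin1 pair had 3 sense and 7 antisense variants and a map number of 2, with 1 position in Spin1 on chromosome 13 and the other on chromosome 9. In 4 of the 5 pairs the antisense sequence began with T and, as the overlap then requires, the sense sequence had A at position 10. The exception was Gm20789, whose sense sequence began with T and whose antisense sequence had A at position 10. Over the 10 groups with a pair chosen in the same way, the antisense sequence began with T in 7 and the sense sequence in 6, with both in 4 and neither in 1.

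Most members had few genome positions. The median map number was 3. Map number 2 held 119483 members (47.8%), map numbers 3 to 10 held 102408 (41.0%), and those above 10 held 27880 (11.2%). Members made up 10.1% of all unannotated sequences of 24 to 33 nt. By comparison, 39.7% of the sequences with a repeat or any other annotation except mRNA, and 1.62% of those annotated to mRNAs, mapped to 2 or more positions. Just inside the length limits there were 17024 members of 24 nt and 2450 of 33 nt, and just outside them 12736 such sequences of 23 nt and 862 of 34 nt.

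The mean length was lower at higher map numbers, by less than 1 nt. The mean was 27.57 nt (SD 2.18) at map number 2, 27.52 nt (SD 2.10) at 3 to 10 and 27.47 nt (SD 2.03) above 10, against 27.59 nt (SD 2.19) at map number 1. Without a locus on chromosome 4 described below, which held 30.6% of the class above 10, the mean above 10 was 27.24 nt. The mode was 27 nt in all 4 sets. Sequences of 29 to 31 nt, the size usually bound by the Piwi protein MIWI, formed 29.7% (29.48 to 29.997) at map number 2, 28.6% (28.3 to 28.9) at 3 to 10 and 27.3% (26.8 to 27.9) above 10, against 29.8% (29.7 to 29.9) at map number 1. Those of 25 to 27 nt formed 45.8%, 47.3% and 48.6% in the same 3 classes, against 45.5% at map number 1. Sequences of 24 nt formed 6.14% above 10, against 7.12% at map number 1.

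**Figure D1:**
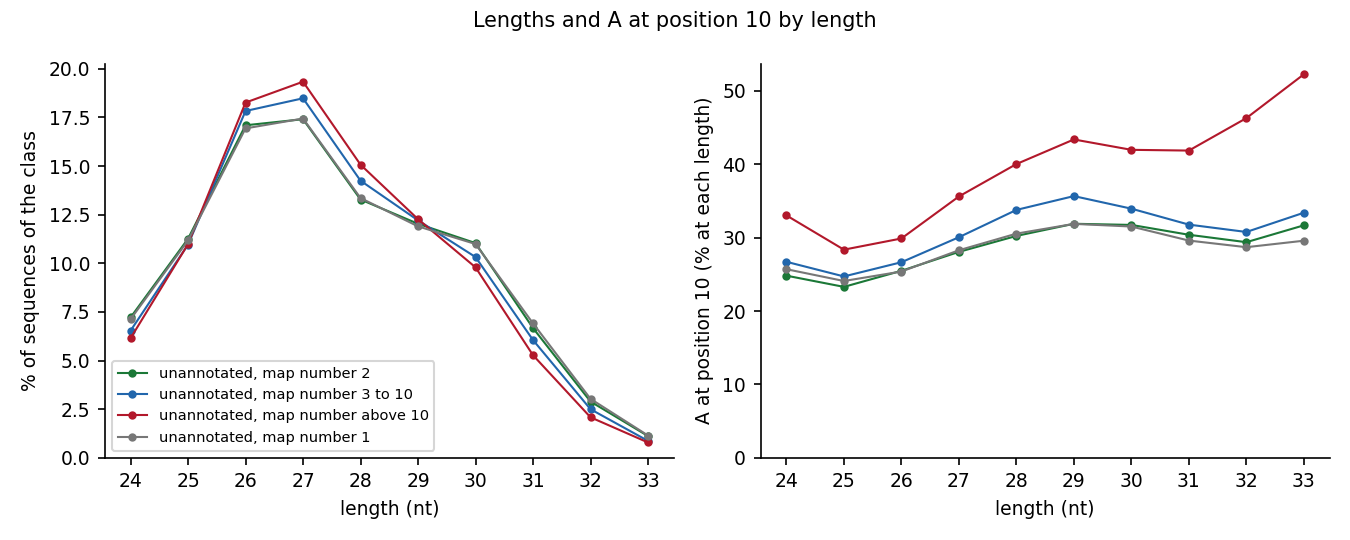
Share of each length from 24 to 33 nt in the sequences of a class (left, %) and share of sequences with A at position 10 at each length (right, %), for unannotated sequences of map number 2, 3 to 10, above 10 and 1. The curves on the left nearly coincide with a mode at 27 nt, while on the right the curve above map number 10 lies over the others at every length, from 28.4% at 25 nt to 52.3% at 33 nt.

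T as first base was about as frequent as in unannotated sequences with 1 position. The share was 68.4% (68.1 to 68.6) at map number 2, 70.3% (70.1 to 70.6) at 3 to 10 and 66.8% (66.2 to 67.3) above 10, against 69.4% (69.3 to 69.5) at map number 1. Repeat and other annotated sequences of the same map numbers had 69.1%, 68.5% and 62.8%. The 19353 members above 10 outside the chromosome 4 locus had T first in 70.9% (70.2 to 71.5), against 70.4% (70.1 to 70.7) at 3 to 10 and 68.4% at map number 2 with the same locus left out, so the class above 10 is then not the lowest. In finer classes the share was highest at map numbers 6 to 10, with 72.8%, and lowest above 1000, with 38.9% of 375 sequences, of which 360 were short tandem repeats.

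A at position 10 was more frequent at higher map numbers, while at map number 2 it was no more frequent than in unique sequences. The share was 28.2% (28.0 to 28.5) at map number 2, 30.4% (30.1 to 30.7) at 3 to 10 and 36.5% (36.0 to 37.1) above 10, against 28.4% (28.3 to 28.4) at map number 1. Over the mean of positions 9 and 11, the excess was 3.09, 4.25 and 10.2 percentage points in the 3 classes, against 1.90 points at map number 1. Repeat and other annotated sequences had an excess of 11.6, 14.0 and 18.0 points in the same classes, so the unannotated members lay between these and unique unannotated sequences. Above map number 10, position 10 had more A than any other position from 2 to 24, among which position 5 came next with 34.6%. At map numbers 2, 3 to 10 and 1, position 5 had more A than position 10. Without the chromosome 4 locus the share above 10 was 34.5% (33.8 to 35.1).

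**Figure D2:**
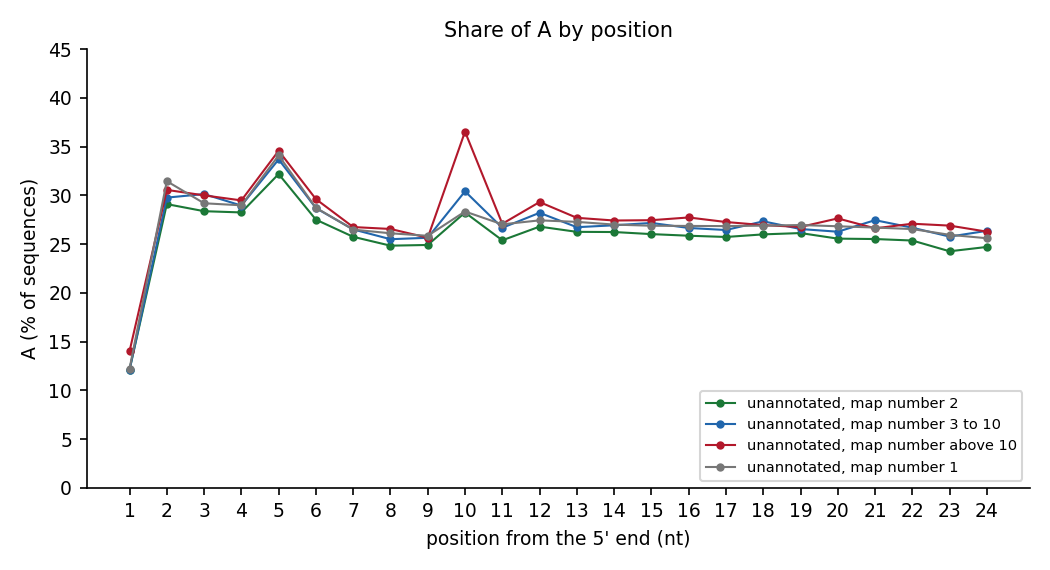
Share of sequences with A (%) at each position from 1 to 24, counted from the 5' end, for unannotated sequences of map number 2, 3 to 10, above 10 and 1. The curves lie farthest apart at position 10, where A reaches 36.5% above map number 10 and 30.4% at 3 to 10, against 28.4% at map number 1.

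The share was higher in sequences that did not start with T. Above map number 10, members beginning with A, C or G had A at position 10 in 49.0% (47.98 to 50.03), and members beginning with T in 30.3% (29.7 to 31.01). The corresponding shares were 36.3% and 27.9% at 3 to 10, 31.7% and 26.6% at map number 2, and 31.2% and 27.1% at map number 1. Above map number 10, members that had A at position 10 but no initial T averaged 27.84 nt, and members with an initial T but no A at position 10 averaged 27.35 nt. The difference was 0.494 nt above 10, 0.107 nt at 3 to 10 and 0.015 nt at map number 2, against -0.077 nt at map number 1. The share of A at position 10 also depended on length. It was lowest at 25 nt in all 3 classes, with 23.3% at map number 2, 24.7% at 3 to 10 and 28.4% above 10, and at 29 nt it was 31.9%, 35.7% and 43.4%. The values of this paragraph were not computed without the chromosome 4 locus. Above map number 10 its members averaged 27.99 nt, against 27.24 nt in the other members. They had T first in 57.5% against 70.9%, and A at position 10 in 41.3% against 34.5%. What the locus contributes to these differences was not tested.

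**Figure D3:**
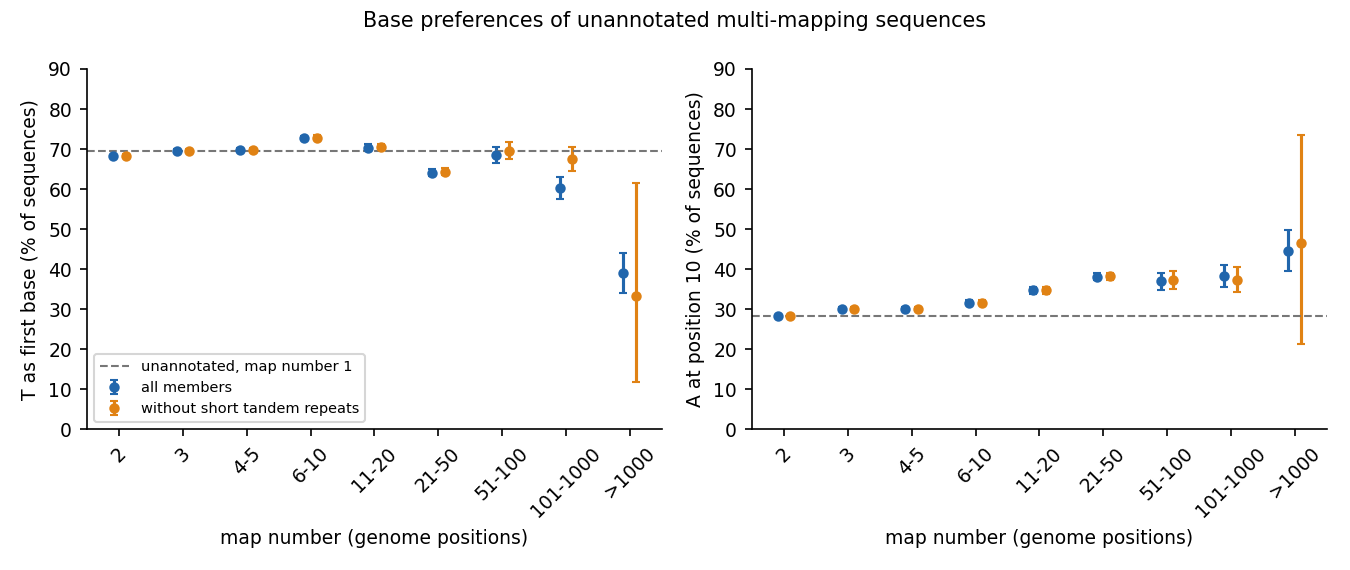
Share of members (%) with T as first base (left) and with A at position 10 (right) by map number class, for all members and without short tandem repeats, with 95% exact intervals as bars; the dashed line is the value of unannotated sequences with map number 1. A at position 10 lies at 28.2% for map number 2 and at 38.1% for 21 to 50, and tandem repeats change T as first base mainly above 100 positions.

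Variants per 5' end became fewer as the map number rose. There were 1.82 distinct sequences per 5' end at map number 2, 1.74 at 3 to 10 and 1.64 above 10, against 1.90 at map number 1, where a 5' end is the first 20 nt. Without the chromosome 4 locus the value above 10 was 1.39. The share of 5' ends with 5 or more variants was 8.08%, 6.56% and 4.93% in the 3 classes, against 9.75% at map number 1. The variants were nearly always nested lengths of the same sequence. Among 5' ends with 2 or more variants, those whose variants diverged after base 20 formed 1.57% at map number 2, 1.92% at 3 to 10 and 4.20% above 10, against 0.531% at map number 1. Per 3' end, defined by the last 20 nt, there were 1.54, 1.45 and 1.37 sequences, against 1.63 at map number 1, so 5' ends were the more uniform ends in each set.

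Short and long variants of a 5' end mostly had the same map number. Of 43781 5' ends with members of different lengths, the longest member had the same map number as the shortest in 87.4% and a lower one in 11.97%. A share of 6.51% of the members had a 5' end in common with an unannotated sequence of map number 1. Sharing of a 5' end with an annotated sequence was rarer still, at 0.921% at map number 2 and 1.12% at 3 to 10, and reached 5% (1394 members) above 10. Near relatives were more frequent at higher map numbers. Another sequence of 24 to 33 nt in the list differed from the first 24 nt at exactly 1 base for 8.58% (8.37 to 8.80) at map number 2, 11.6% (11.3 to 11.9) at 3 to 10 and 17.9% (17.3 to 18.5) above 10, against 1.39% (1.37 to 1.41) at map number 1. Sequencing errors and true copies cannot be told apart in these counts.

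Short tandem repeats, with a unit of at most 6 nt, supplied the extreme map numbers but few members. They numbered 1226 in all, of which 1046 lay above map number 10, or 3.75% of that class. Units of 4 nt were the most frequent with 616 members, followed by 337 of 3 nt, 135 of 5 nt, 72 of 6 nt and 66 of 2 nt. The highest map number, 1203992, belonged to a sequence of 24 nt with a repeat unit of 2 nt. The 3 5' ends with most variants above 10 were tandem repeats as well, with 44, 29 and 25 variants. In the other classes the first 5' ends had 18, 16 and 16 variants at map number 2 and 17 each at 3 to 10. Of these 6, 1 at map number 2 and 1 at 3 to 10 lay antisense to the pseudogene Gm47366 on chromosome 10, and 1 at 3 to 10 lay antisense to Gm48009 on chromosome 13.

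Possible opposite-strand partners within a class were sought by comparing 10 bases at each overlap, without locating either sequence. Above map number 10, a 5' end matching at an overlap of 10 nt was found for 22.995% (22.4 to 23.6) of 17034 5' ends. Overlaps of 11 to 20 nt gave 16.2% on average (SD 0.398). Without the chromosome 4 locus these values were 14.4% (13.8 to 14.95) of 13913 5' ends and 8.99%, or 1.60 times. At 3 to 10 it was 16.7% (16.4 to 17.0) against 12.3%, and at map number 2 14.1% (13.9 to 14.4) against 12.03%. The value at 10 nt was thus 1.42, 1.36 and 1.18 times that of the other overlaps from high to low map number. As many evenly spaced 5' ends of map number 1 gave 1.06, 1.13 and 1.15 times, but thinning also removes partners, so these values are not a like-for-like reference. At 10 nt the first base, often T, is compared with position 10, where A was more frequent at higher map numbers. Base composition thus enters all these ratios and their rise, so they do not by themselves show paired sequences. What it contributes was not tested.

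Where the members lie was read from exact, whole-length matches to the spliced transcripts of GENCODE M21 on GRCm38. A transcript was found for 116145 members (46.5%), with 43.9% at map number 2, 43.1% at 3 to 10 and 69.9% above 10. The chromosome 4 locus, all of it matched, held 30.6% of the class above 10. The remainder may lie in introns or between genes, which were not searched. Of the matched members, 64.4% matched the sense strand only, 24.6% the antisense strand only and 11.01% both. Pseudogenes were matched by 59.3%, protein-coding genes by 74.8% and long noncoding genes by 25.7%, with members counted under each type they match. An antisense match to a gene of the same type was found for 34.4% of the members on pseudogenes, 42.1% of those on long noncoding genes and 24.5% of those on protein-coding genes. An antisense match to any gene was found for 35.6% of all matched members, which is a wider count than those by type. Sequences annotated to mRNAs are not members, so the share on protein-coding genes does not describe all their small RNAs. For 46116 members as many positions were located as the map number states, and for 5001 more were located than it states, the cause of which was not tested. Of the fully located members, 27.4% at map number 2 had both positions on 1 chromosome, with a median distance of 79.0 kb, and 51.9% of such members lay in the same orientation at both. At 3 to 10 the values were 25.1% on 1 chromosome and 40.2% of these in the same orientation, and above 10 they were 21.8% and 81.1%.

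Base composition differed between members with and without a transcript, in opposite directions at low and high map numbers. Matched members had T first in 73.4% (73.1 to 73.8) at map number 2, against 64.4% (64.05 to 64.8) of unmatched ones. At 3 to 10 the shares were 70.8% and 69.96%. Above 10, matched members had T first in 62.9% (62.2 to 63.6), against 75.8% (74.9 to 76.7) of unmatched ones. A at position 10 above map number 10 was found in 37.1% of the matched and 35.1% of the unmatched members, so its higher frequency there was present in both. The chromosome 4 locus supplied 8527 of the 19500 matched members above 10 and none of the unmatched. It had T first in 57.5% and A at position 10 in 41.3% of these. The matched shares were not computed without it.

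The largest source was a duplicated region of chromosome 4, from 41809083 to 42856771 on GRCm38. Its 22 genes share members with the noncoding transcript Gm17167 (42206998 to 42235313), 20 of them on chromosome 4, and include pseudogenes, predicted coding genes and the Fam205a genes Fam205a1 to Fam205a4. Together they matched 10016 members, which are 4.01% of all members and 30.6% of those above map number 10. Their median map number was 21. The 10 genes with most sense matches over all members belonged to this region. Gm10593 and Gm3892 had 3681 each, Gm2163 3367, Gm17167 3273, Gm3883 2894, Gm5859 2455, Gm10600 2358, Gm12394 2284, Gm13301 2056 and Gm13302 2019. As the copies are near-identical, these counts are largely the same sequences counted at each copy.

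Both strands of the chromosome 4 region were covered, with different base preferences. On the Gm17167 transcript of 5054 nt there were 3273 sense and 4305 antisense members. Sense members had T first in 44.4% (42.7 to 46.1) and A at position 10 in 54.5% (52.8 to 56.2). Antisense members had T first in 66.3% (64.9 to 67.8) and A at position 10 in 29.7% (28.3 to 31.05). Of 1257 sense 5' ends, 66.6% (63.9 to 69.2) had an antisense 5' end overlapping by 10 nt, against a mean of 53.1% (SD 2.02) and a highest value of 58.2% over the other overlaps from 1 to 30 nt. Of all sequences of 24 to 33 nt on this transcript, 88.3% were members, 10.9% were annotated to repeats or other RNAs and 0.85% were unannotated and unique.

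A second duplicated region, on chromosome 13 from 50099026 to 50703435, was also covered on both strands, mostly in antisense. Its 5 genes, led by the pseudogene Gm20789 and including Gm8765, Gm906, Gm8700 and Gm904, matched 3081 members with a median map number of 5. Gm20789 had 569 sense members, with A at position 10 in 49.2% (45.03 to 53.4), and 1746 antisense members, with A at position 10 in 29.4% (27.3 to 31.6) and T first in 73.4%. An overlap of 10 nt was found for 51.02% (45.6 to 56.4) of 343 sense 5' ends, against a mean of 32.5% (SD 3.799) and a highest value of 38.8% at other overlaps.

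**Figure D4:**
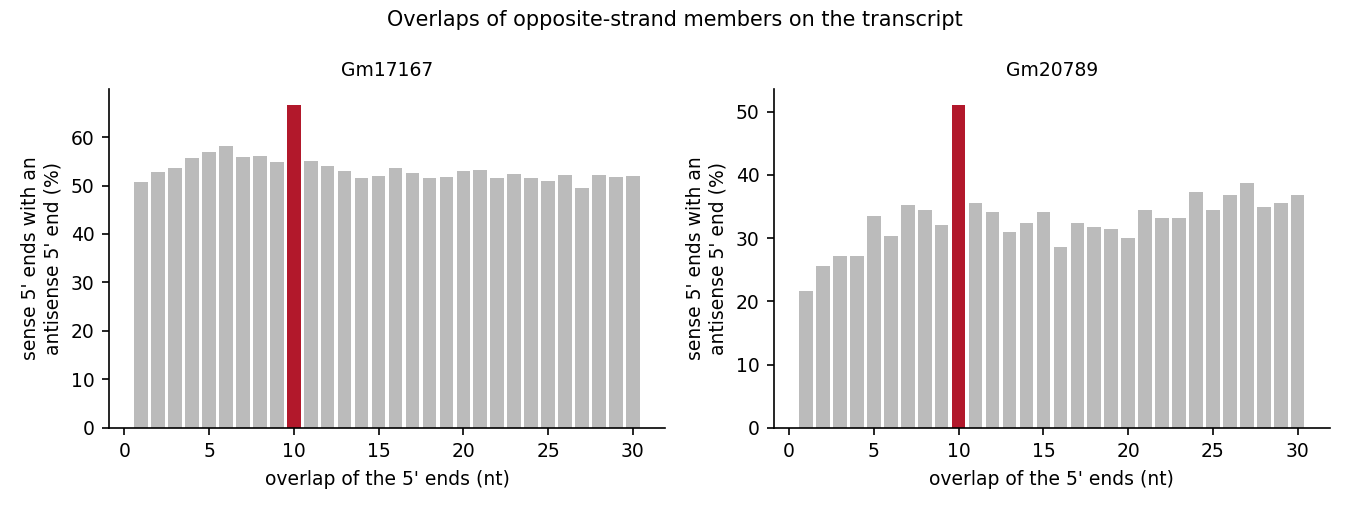
Share of sense 5' ends (%) that have an antisense member whose 5' end overlaps by 1 to 30 nt, on the transcripts of Gm17167 (left) and Gm20789 (right). The bar at 10 nt, in red, reaches 66.6% and 51.02%, above the highest grey bars at 58.2% and 38.8%.

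The leading genes of several pseudogene groups had mostly antisense members. Processed pseudogenes, which are reverse-transcribed copies of mRNAs, lie on chromosome 10 between 85744174 and 86623999 and formed 3 groups with shared members. These groups held 2742 members (led by Gm48450), 2480 (Gm47366) and 2072 (Gm48475). Gm48450 had 77 sense and 1349 antisense members, Gm47366 22 and 1260, and Gm48475 127 and 1158. Other pseudogenes of the Gm48450 group were less one-sided, with 185 sense and 260 antisense members on Gm48464, 125 and 266 on Gm48465 and 105 and 97 on Gm47362. On chromosome 7, 16 genes between 38311078 and 41290183, 13 of them pseudogenes, matched 1675 members, and the first of them, Gm6605, had 52 sense and 1105 antisense members. Gm48009 on chromosome 13 had 5 and 1500. Gm18609 on chromosome 6 had 7 and 1551, and the noncoding gene Gm10010, which overlaps it on the other strand, had 1171 in sense. Members were 24.1% of the sequences of 24 to 33 nt on Gm18609 and 37.8% on Gm47366. There 74.0% and 62.2% were unannotated and unique. On Gm48450, Gm48475, Gm6605 and Gm48009 members were 67.7%, 72.8%, 81.6% and 68.6%.

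The few sense members of these leading pseudogenes carried A at position 10 far more often than the antisense ones. The share was 80.5% (69.9 to 88.7) of the sense members of Gm48450, 77.3% (54.6 to 92.2) for Gm47366, 71.7% (63.0 to 79.3) for Gm48475 and 71.2% (56.9 to 82.9) for Gm6605. Among their antisense members it was 29.2%, 27.9%, 28.7% and 20.2%. Overlaps were not computed for Gm47366, which had 18 sense 5' ends, fewer than the 40 required on each strand. An excess of overlaps at 10 nt was not seen in each of the others. It was 51.1% (35.8 to 66.3) of 45 sense 5' ends of Gm6605, against 24.1% on average and 35.6% at most elsewhere. In Gm48450 it was 54.3% of 46, against a mean of 49.9% and a highest value of 67.4%, and in Gm48475 40.3% of 67, against 42.5% and 61.2%. The overlaps with higher values than at 10 nt were all of 16 nt or more in Gm48450 and of 14 nt or more in Gm48475.

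**Figure D5:**
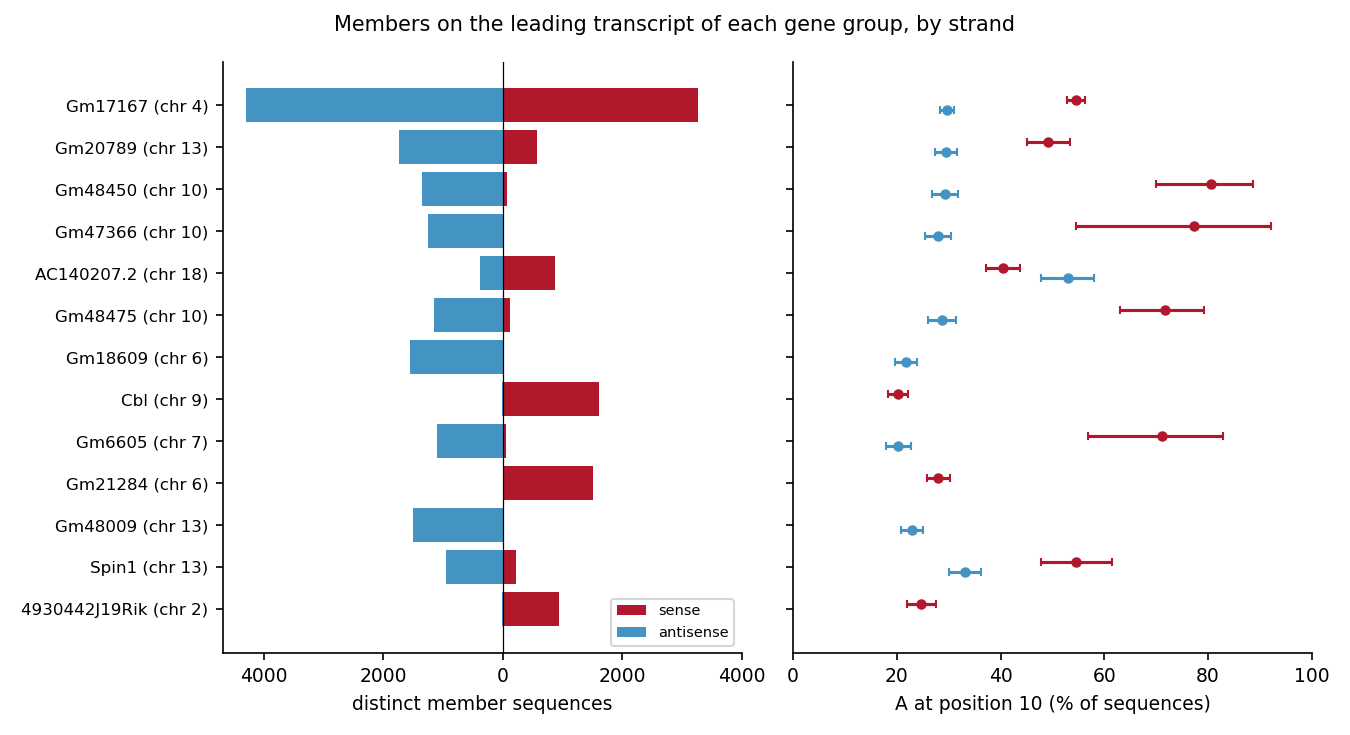
Left, number of distinct members on the leading transcript of each group, sense to the right and antisense to the left; right, share with A at position 10 (%) by strand with 95% exact intervals, where a strand has at least 20 members. Of the 8 groups with both strands shown on the right, 7 have more A at position 10 in sense (49.2% to 80.5%) than in antisense (20.2% to 33.05%), and AC140207.2 has less in sense (40.4%) than in antisense (53.003%).

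Spin1, which encodes a reader of histone methylation, was the coding gene with most antisense members outside the chromosome 4 region. It had 216 sense and 947 antisense members, and with the pseudogenes Gm7787 and Spin3-ps the group held 1183. Sequences annotated to mRNAs are not members, and 221 of them lay on the Spin1 transcript, so this balance of strands is that of members only. The share with A at position 10 was 54.6% (47.7 to 61.4) in sense and 33.05% (30.1 to 36.2) in antisense. The overlap of 10 nt, with 20% of 160 sense 5' ends, did not stand out from the other overlaps, which reached 21.9%.

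AC140207.2, a noncoding gene on chromosome 18, led the fifth largest group and had the opposite strand difference in A at position 10. The 554 genes of the group together matched 2260 members, and 56.3% of the sequences on its leading transcript were annotated to repeats or other RNAs. AC140207.2 had 874 sense members with A at position 10 in 40.4% (37.1 to 43.7), and 383 antisense members with A at position 10 in 53.003% (47.9 to 58.1). T came first in 59.8% of the sense and 58.7% of the antisense members. An overlap of 10 nt was found for 25.4% (20.9 to 30.2) of 351 sense 5' ends, against a mean of 20.6% and a highest value of 24.8% at other overlaps.

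Other loci gave members almost entirely from the sense strand. The noncoding gene 4930442J19Rik on chromosome 2 had 951 sense and 10 antisense members, Gm14144, with which it shares members, had 929 and 13, and Gm21284 on chromosome 6 had 1509 and 1. Cbl, which encodes a ubiquitin ligase, had 1617 sense and 8 antisense members, and Rybp, which encodes a Polycomb protein, had 818 and 0. In Cbl 98.9% of the sense members started in the 3' untranslated region, which is 74.5% of the transcript, and in Rybp 97.3%, against 80.2% of the length. A at position 10 was present in 20.2% (18.2 to 22.2) of the sense members of Cbl, 28.0% (25.7 to 30.3) of Gm21284 and 24.7% (22.0 to 27.6) of 4930442J19Rik. Smarca5, which encodes a chromatin remodelling ATPase, differed from Cbl in that 0.379% of its 528 sense members started in the 3' untranslated region, which is 41.9% of its transcript. Its processed pseudogene Smarca5-ps, on chromosome 4, had 544 sense members. Unique sequences and those annotated to mRNAs are not members, so the shares in untranslated regions, and the contrast of Smarca5 with Cbl, describe members only. On the Cbl transcript 1625 members formed 21.2% of the sequences, beside 4585 unannotated unique ones and 522 annotated to mRNAs. Where the sequences left out started was not tested. The genes outside the chromosome 4 region were picked after their values had been seen.

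Ribosomal protein genes, which have many processed pseudogenes, were the listed families with most members. Of 239 Rpl genes and pseudogenes, 223 had sense members, 7392 in all, with 550 further members in antisense only, and Rpl7a led with 430. Of 138 Rps genes and pseudogenes, 133 had sense members, 5285 in all, with 316 in antisense only, and Rps15 led with 535. Their T first share of 65.0% and 65.5% compared with 69.002% over all members. Zinc finger genes of the Zfp series followed, with 1654 sense members in 164 of 417 genes and Zfp280b leading with 249. Histone genes had 253 sense members, led by Hist2h2aa1 with 135, and the Sp100 family of nuclear body proteins 135, led by Sp110 with 86.

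The amplified families of the sex chromosomes, many of which are transcribed in spermatids, gave few members under the gene symbols searched. These symbols covered 1 annotated gene each for Sly, Srsy, Rbmy and Ott, and 2 each for Slx with Slxl1 and for Ssty. Copies annotated under other names were not counted. Sly had 61 in sense, Slx and Slxl1 78 (59 from Slx), Ssty 16 (14 from Ssty2), Srsy 34, Rbmy 32 and Ott 10. No member matched Slx, Sly, Rbmy or Ott in antisense only, whereas 75 matched Srsy in that way. On the X, Mageb genes had 66 (58 from Mageb4), Xlr genes 70 (41 from Xlr5b), Rhox genes 70 (22 from Rhox3a) and Magea genes 4, all matching Magea5. Of the matched members, 0.802% had a position on the Y chromosome. The autosomal Speer family had 62 sense members (23 from Speer4cos), Pramel 1 (Pramel3) and Tdpoz 3 (1 of them from Tdpoz2). Olfactory and vomeronasal receptor genes were matched mostly by sequences with very many positions. The median map number of their sense members was 396 for Olfr, 6732 for Vmn1r and 111 for Vmn2r, and Olfr1459, Vmn1r73 and Vmn2r60 led with 126, 37 and 85.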

How the data were processed

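The labels describe 8 libraries of testis RNA, size selected to 19 to 33 nt, ligated to linkers at both ends and amplified. The authors deposited 1 table for the series. Per the file headers, each line holds a sequence, its map number, treated here as a score, and a final annotation. No source used here names the aligner, the genome build or the annotation. Neither read number nor library is attached, so depth is unknown, and the design's values were computed without tests. Map number classes were 2, 3 to 10 and above 10. A tandem repeat has at least 90% of bases equal to the base 1 to 6 positions on. Members were matched to 141767 GENCODE M21 transcripts (GRCm38), and genes with at least 100 members were grouped with genes sharing at least 20 members and 20% of their own. Functions were tested on simulated data. Genes named are the 10 with most sense matches, the first of each listed family and the richest 5' ends; others are said to be picked afterwards. Members and lists were chosen with earlier results of these data known. Python 3.11.15, pandas 2.3.3 and scipy 1.17.1 were used.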

Additional observations from a re-analysis of the deposited data

How the results depend on the processing

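Counting each 5' end once, by its longest sequence, gave T first in 64.5%, 64.8% and 63.4% and A at position 10 in 28.9%, 31.2% and 34.2% at map number 2, 3 to 10 and above 10. With 25 to 32 nt, T first was 69.2% at map number 2 and 70.9% at 3 to 10, mean lengths were 27.79, 27.72 and 27.65 nt, and variants per 5' end 1.75, 1.68 and 1.59. Above map number 10, leaving out 5' ends of annotated sequences gave 1.60 variants per 5' end, leaving out tandem repeats T first in 67.7%, and leaving out the Gm17167 group T first in 70.9%, A at position 10 in 34.5%, a mean length of 27.24 nt, 1.39 variants per 5' end and an excess of partners at 10 nt of 5.37 points. Leaving out tandem repeats and leaving out that group were chosen after seeing the data. Members of map number 2 to 10 matched transcripts in 43.6%. The excess of possible partners, which were not located, at 10 nt over other overlaps was 2.11, 4.40 and 6.78 points. With 8 bases compared it was 2.64 at map number 2 and 3.79 at 3 to 10. The rise of A at position 10 with map number held in each setting under which it was recomputed. The cause of the moves was not tested. The other values, among them all those with 18 or 24 nt to define a 5' end, stayed within the interval of the main value. No paired analysis was possible because no value belongs to a single library. With depth unknown, whether rare variants were missed in any class was not tested, and introns and intergenic copies were not searched.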
